A study of Mus musculus with 8 samples.

Results

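The Bcl2 family decides whether a cell opens its outer mitochondrial membrane and enters apoptosis. Anti-apoptotic proteins hold the pore-forming effectors in check, and BH3-only proteins, which share with the rest of the family only the short BH3 helix, either neutralise the anti-apoptotic proteins or activate the effectors directly. In epithelial tissues, this family sets how a cell tolerates loss of attachment, growth factor withdrawal and DNA damage.

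The 10 genes described here were chosen by name in the table of read counts per gene. They are the anti-apoptotic Bcl2, Bcl2l1 (Bcl-xL) and Mcl1, the effectors Bax and Bak1, and the BH3-only genes Bcl2l11 (Bim), Bbc3 (Puma), Pmaip1 (Noxa), Bid and Bad. All 10 were found among the 31894 genes of the table, and all 10 passed the filter on low counts that left 13598 genes for testing.

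The table holds bulk mRNA sequencing of tumor cells from breast cancer brain metastases (BCBM) of 4 mice, numbered 57, 58, 67 and 70. The labels give FVB as the strain and wild type as the genotype. The tumor cells came from a PyMT E-cad-mCFP mammary tumor, in which the polyoma middle T oncogene drives tumor growth and endogenous E-cadherin carries a cyan fluorescent protein, and which had been passaged serially in brain before it was grown as BCBM organoids. All libraries therefore share 1 organoid line, which also carries the nuclear marker H2B-Dendra2, and adult female mice received it by intracranial injection without any drug treatment that differed between the groups. From every mouse, living Dendra2-positive cells with high E-cad-mCFP (E-cadHI) and cells without it (E-cadLO) were sorted, which gave 4 libraries per group and 1 library of each kind per mouse. By flow cytometry, purity after sorting was checked by the study in the CFP-positive cells only. The study also imaged E-cad-mCFP in both sorted populations and reports that they were isolated successfully. The comparison asks whether expression of the family differed between E-cadLO and E-cadHI cells of the same mouse.

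The BH3 helix is what the members have in common, and its coding bases are printed here because binding between members runs through it. In the longest coding transcript of each gene, a leucine codon followed by 3 codons of any kind, a glycine, alanine or serine codon and an aspartate codon was searched on the coding strand. The pattern occurred exactly once in each of the 9 members that were searched, but it also occurred in 34.0% of the 21560 genes with a coding sequence, so that it marks the BH3 core only within this family. Capitals mark the leucine codon and the codons of the small residue and the aspartate, each sequence runs 5′ to 3′ over 9 codons (27 bases), and all are taken from the GRCm38 genome with the GENCODE M21 annotation.
Bcl2: CTCcgccgggctGGGGATgacttctct
Bcl2l1: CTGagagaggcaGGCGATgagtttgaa
Mcl1: CTGcggcgcgtgGGCGACggcgtgcag
Bax: CTCcggcgaattGGAGATgaactggac
Bak1: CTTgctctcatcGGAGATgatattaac
Bcl2l11: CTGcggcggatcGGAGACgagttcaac
Bbc3: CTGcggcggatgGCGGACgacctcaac
Bid: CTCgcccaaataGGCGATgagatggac
Bad: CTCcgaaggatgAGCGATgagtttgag

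In 7 of the 9 sequences the small residue was glycine, while Bbc3 had alanine and Bad had serine at this place. Only 6 of the 27 bases were identical in all 9 sequences. The BH3-only pair Bcl2l11 and Bbc3 shared the most bases (22 of 27), and Bak1 and Bcl2 shared the fewest (11 of 27). Among the anti-apoptotic genes, the printed bases lay at chr1:106712575-106712601 on the minus strand in exon 1 of 2 for Bcl2, at chr2:152829697-152829723 on the minus strand in exon 2 of 3 for Bcl2l1, and at chr3:95659436-95659462 on the plus strand in exon 1 of 3 for Mcl1. For the effectors they lay at chr7:45465997-45466023 on the minus strand in exon 3 of 6 (Bax) and at chr17:27022531-27022557 on the minus strand in exon 4 of 6 (Bak1). For the BH3-only genes they lay at chr2:128147150-128147176 on the plus strand in exon 3 of 4 (Bcl2l11), at chr7:16313773-16313799 on the plus strand in exon 3 of 4 (Bbc3), at chr6:120897289-120897315 on the minus strand in exon 4 of 6 (Bid) and at chr19:6950792-6950818 on the plus strand in exon 3 of 4 (Bad). All 9 are coding sequence. Pmaip1, on chromosome 18 from 66458604 to 66465550, is described by its values only.

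Total counts ranged from 11876177 to 14922074 in the E-cadHI libraries and from 9102781 to 15769200 in the E-cadLO libraries. The summed level of 10 tumor epithelium markers was 7524 to 10267 CPM (counts scaled per 1000000 counts of the normalised library) in E-cadHI and 5616 to 14106.5 CPM in E-cadLO libraries, and none of these markers was at 0 in all libraries. Cdh1, which encodes the sorted protein, had its lower value in the E-cadLO library in 3 mice, but in mouse 58 it stood at 181 CPM in the library labelled E-cadLO and at 132 CPM in the library labelled E-cadHI. Several lists of markers of other cells had higher sums in E-cadLO libraries. All 12 microglia and macrophage markers were higher in 4 of 4 mice, with a summed level of 34.4 to 271 CPM in E-cadHI and 226 to 994 CPM in E-cadLO libraries. The 8 oligodendrocyte markers summed to 554 to 8611 CPM and 1316 to 34470 CPM, with the E-cadLO library of mouse 70 standing apart (higher in 4 of 4 mice). The 8 astrocyte markers summed to 1146 to 3557 CPM in E-cadHI and 723 to 9881 CPM in E-cadLO libraries, higher in 3 of 4 mice. In mouse 57 their sum was lower (723 against 1146 CPM), and there Aldoc had 1005 CPM in the E-cadHI and 124 CPM in the E-cadLO library. Aqp4 was also lower in that mouse, while Gfap, Slc1a2, Slc1a3, Gja1, S100b and Aldh1l1 were higher. In 4 of 4 mice, 5 of the 8 astrocyte markers were higher. The 10 neuron markers summed to 31.2 to 156 CPM and 50.2 to 526 CPM. The 10 fibroblast and mural markers reached 1202 CPM in the E-cadLO library of mouse 57 against at most 192 CPM elsewhere. With TMM scaling, the summed level of 8 cell cycle genes was lower in E-cadLO cells of 4 of 4 mice (829 to 895 CPM against 850 to 1212 CPM). The genes of this list were split, since 3 of the 8 were lower and 1, Bub1, was higher in 4 of 4 mice. The part of these other cells in the results below was not tested. In bulk libraries of sorted cells, fewer cells that express a gene and less of its RNA per cell cannot be told apart.

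No member passed the test between E-cadLO and E-cadHI cells after adjustment for the number of genes tested. In edgeR's quasi-likelihood fit, 0 of 10 members had a p, adjusted by Benjamini-Hochberg over all tested genes, under 0.05 (0.343 to 0.749), where the background was 0% of all tested genes. When the mouse was included as a replicate block, which compares the populations within each animal, again 0 of 10 members passed (smallest adjusted p = 0.240, edgeR) against a background of 0.728%. DESeq2 called 0 of 10 members without the block (background 2.56%) and 0 of 10 with it (background 9.2%). At an unadjusted p under 0.05, edgeR without the block listed 1 of 10 members, Bad, as lower in E-cadLO cells, where 5.81% of all tested genes were listed as lower, and with the block it listed 2 of 10, Bad and Bak1, where 7.33% of genes were listed as lower. Leaving out each mouse in turn, edgeR called 0 of 10 members with or without the block. The share of all tested genes called was not counted in those fits, so this 0 says little about the members. None of the 10 members had groups that did not overlap, against 8.1% of all tested genes.

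**Figure D1:**
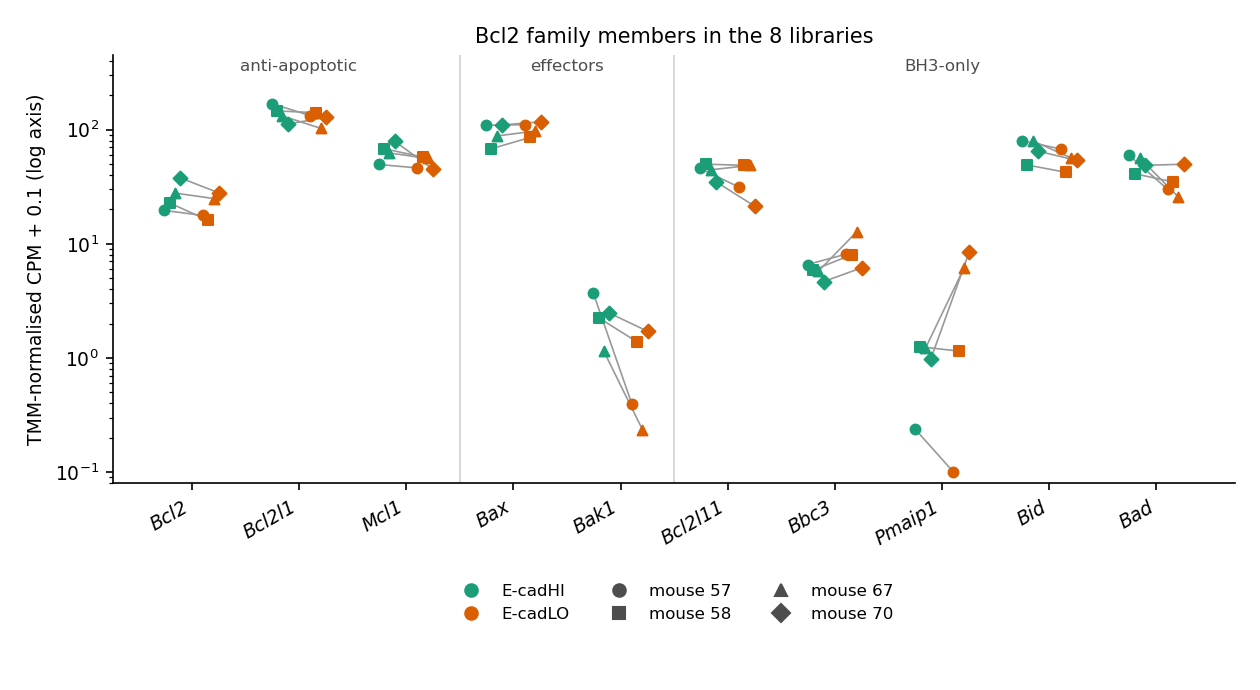
Normalised level of the 10 members in the 8 libraries, as CPM plus 0.1 on a log axis, with E-cadHI in green and E-cadLO in orange and a line joining the libraries of each mouse. The groups overlap for every member, Bcl2l1 and Bax are highest, and Pmaip1 stands out in the E-cadLO libraries of mice 67 and 70 only.

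Read within mice, 6 of the 10 members had the same direction in 4 of 4 animals. On log2(CPM + 0.5), Bcl2, Mcl1, Bak1 and Bid were lower in E-cadLO cells of all 4 mice, a count of 4 of 10 where 14.2% of all tested genes were lower in all 4. Bax and Bbc3 were higher in all 4 mice, a count of 2 of 10 where 16.8% of all tested genes were higher in all 4. With 4 pairs, the exact two-sided sign-flip test cannot go below p = 0.125, which is the value of these 6 genes. Scaling to library totals in place of TMM, which moved the median of all genes in mouse 57 from 0.02 to 0.31 on the log2 scale, turned Bcl2 (0.16), Mcl1 (0.21) and Bid (0.08) to higher in the E-cadLO cells of mouse 57, while Bak1 was lower and Bax and Bbc3 were higher in 4 of 4 mice under both scalings and under DESeq2's size factors.

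**Figure D2:**
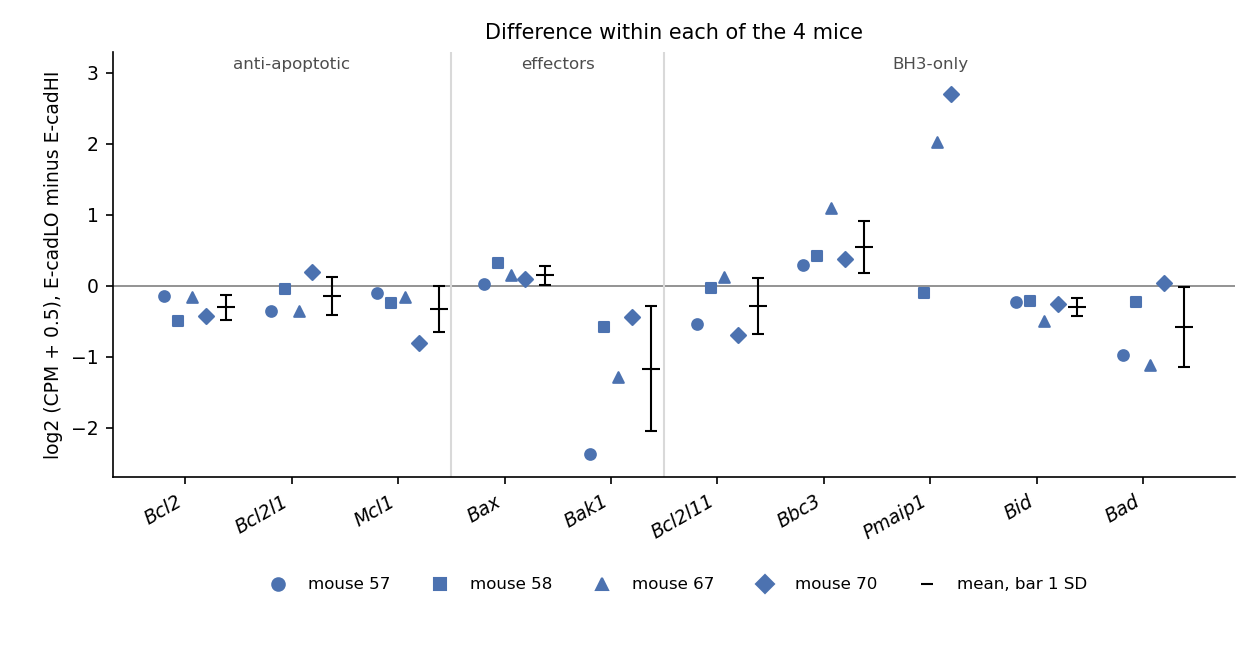
Difference in log2(CPM + 0.5) between the E-cadLO and E-cadHI library of each mouse for the 10 members, with the mean and 1 SD over the 4 mice in black. Bcl2, Mcl1, Bak1 and Bid lie below 0 and Bax and Bbc3 above 0 in all 4 mice. For Pmaip1, mouse 57 is not drawn because both libraries held at most 3 counts, and no mean is given.

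Among the anti-apoptotic genes, Bcl2 (chr1:106538178-106714274), the founding member of the family, stood at 19.5, 22.7, 27.7 and 37.7 CPM in E-cadHI cells of mice 57, 58, 67 and 70 and at 17.6, 15.9, 24.8 and 27.8 CPM in E-cadLO cells of the same mice. Mouse 70 was highest in both groups, and 2 of 4 E-cadLO libraries lay below all E-cadHI libraries. Over the 8 libraries, Bcl2 had a log2 fold change of -0.32 (SE 0.28, 95% interval -0.94 to 0.31, adjusted p = 0.581, edgeR without the block). An antisense gene, D630008O14Rik, overlaps an exon of Bcl2 but reached at most 1.15 CPM.

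Bcl2l1 (chr2:152780668-152831728), whose long product Bcl-xL protects epithelial cells, had 169.6, 145.9, 132 and 112 CPM in E-cadHI and 133, 141, 103 and 128 CPM in E-cadLO cells. Only mouse 70 had the higher value in its E-cadLO library, and the other 3 mice had the lower value there. Its log2 fold change was -0.15, next to Bax the closest to 0 of all members (SE 0.17, 95% interval -0.54 to 0.24, adjusted p = 0.679, edgeR without the block). Counts per gene do not separate its long anti-apoptotic from its short pro-apoptotic product.

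For Mcl1 (chr3:95658788-95663176), which encodes a short-lived protein that binds Bim, Noxa and Bak, the E-cadHI libraries had 49.5, 68.1, 62.4 and 78.9 CPM and the E-cadLO libraries 46.1, 57.5, 55.9 and 44.7 CPM. The E-cadLO values of mice 57 and 70 lay below all E-cadHI values, and the difference was widest in mouse 70. The fit gave a log2 fold change of -0.34 (SE 0.18, 95% interval -0.75 to 0.07, adjusted p = 0.415, edgeR without the block), and it was -0.17 without mouse 70 (adjusted p = 0.715, same test).

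Of the effectors, Bax (chr7:45461697-45466898) had 109, 68.0, 88.0 and 109.9 CPM in E-cadHI and 111, 85.4, 97.3 and 117 CPM in E-cadLO cells. The differences within mice were small, from 0.02 in mouse 57 to 0.33 in mouse 58 on the log2 scale, and mouse 58 was lowest in both groups. For Bax the fit gave a log2 fold change of 0.13 (SE 0.19, 95% interval -0.30 to 0.56, adjusted p = 0.749, edgeR without the block). Gm45808, a protein-coding gene on the same strand, overlaps an exon of Bax in the GENCODE M21 annotation. No gene of this name is among those with deposited counts, so no level can be given for it. How reads in the overlap were assigned is not given in the sources used here.

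Bak1 (chr17:27019810-27029009), the other pore-forming effector, was near the limit of detection. Its E-cadHI libraries had 3.62, 2.15, 1.04 and 2.37 CPM from 52, 28, 14 and 27 counts, and its E-cadLO libraries had 0.297, 1.28, 0.135 and 1.61 CPM from 4, 11, 2 and 23 counts. The E-cadLO values of mice 57 and 67 lay below all E-cadHI values. Counting error alone left the ratio of E-cadLO to E-cadHI between 0.0215 and 0.223 in mouse 57 (ratio 0.0820) and between 0.0143 and 0.563 in mouse 67 (ratio 0.129), whereas in mice 58 and 70 the 95% exact counting intervals reached above 1 (0.267 to 1.23 and 0.371 to 1.23). Bak1 had the most negative fitted log2 fold change of the 10 members, -1.47 (SE 0.79, 95% interval -3.25 to 0.30, adjusted p = 0.415, edgeR without the block). With the replicate block it was -1.79 (unadjusted p = 0.0426, adjusted p = 0.241), and without mouse 57 it was -0.91 (adjusted p = 0.778, without the block). Ggnbp1, on the opposite strand, overlaps exons of Bak1 and had 1.40 to 6.06 CPM, and whether counting used strand is not stated.

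Among the BH3-only genes, Bcl2l11 (chr2:128126038-128162547) encodes Bim, which binds all anti-apoptotic members and accumulates on loss of matrix attachment in mammary epithelium. In E-cadHI cells it had 45.7, 49.8, 44.4 and 34.7 CPM, and in E-cadLO cells 31.3, 48.6, 48.5 and 21.2 CPM. Mice 58 and 67 differed by -0.03 and 0.13 on the log2 scale, while mice 57 and 70 differed by -0.54 and -0.70. Across the groups, the log2 fold change of Bcl2l11 was -0.22 (SE 0.28, 95% interval -0.84 to 0.40, adjusted p = 0.699, edgeR without the block), and it was -0.02 without the E-cadLO library of mouse 70 (adjusted p = 0.976).

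The p53 target Bbc3 (chr7:16308393-16318205), which encodes Puma, had 6.48, 5.76, 5.65 and 4.57 CPM in E-cadHI and 8.02, 7.91, 12.7 and 6.08 CPM in E-cadLO cells. In mice 57, 58 and 67 the E-cadLO values lay above all E-cadHI values. The E-cadLO value of mouse 70 was above that of its own E-cadHI library, though below that of mouse 57. The fitted log2 fold change was 0.63 (SE 0.34, 95% interval -0.14 to 1.39, adjusted p = 0.419, edgeR without the block), with an exact two-sided permutation p of 0.0571 where the smallest possible value is 0.0286. Without mouse 67, the widest pair, it was 0.40 (adjusted p = 0.769, edgeR).

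Pmaip1 encodes Noxa, which binds Mcl1 and is induced by p53 and by the integrated stress response. Its E-cadHI libraries had 0.139, 1.15, 1.11 and 0.878 CPM from 2, 15, 15 and 10 counts, and its E-cadLO libraries had 0, 1.05, 6.06 and 8.46 CPM from 0, 9, 90 and 121 counts. The mice thus disagreed. In mice 67 and 70 the E-cadLO library was higher, 5.43 times (95% exact counting interval 3.13 to 10.1) and 9.63 times (5.06 to 20.6), in mouse 58 the ratio was 0.908 (0.350 to 2.22), and in mouse 57 neither library held more than 3 counts and no ratio is given. The fitted log2 fold change, 2.24, was the largest of the 10 members and had the widest error (SE 1.25, 95% interval -0.56 to 5.04, adjusted p = 0.429, edgeR without the block). With the replicate block it was 1.46 (adjusted p = 0.425), and under the block it was 0.54 without mouse 70 (adjusted p = 0.841) and 0.89 without mouse 67 (adjusted p = 0.786). The E-cadLO libraries of mice 67 and 70 also had the highest microglia and macrophage sums of all libraries (775 and 994 CPM, at most 271 CPM elsewhere) and the highest lymphocyte marker sums (64.0 and 53.6 CPM, at most 14.8 CPM elsewhere). Ptprc, which all leukocytes express, made up 62.1 and 42.2 CPM of the lymphocyte sums, followed by the cytotoxic lymphocyte gene Nkg7 at 1.01 and 6.64 CPM. The T cell markers Cd3e (0.471 and 0.419 CPM), Cd3d (0 and 1.12 CPM) and Cd8a (0.0673 and 1.61 CPM) were low, and the B cell marker Cd79a was at 0 in both libraries and at no more than 0.116 CPM in all others. The part of these cells in the Pmaip1 level was not tested.

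Bid (chr6:120891930-120916853) encodes the BH3-only protein that caspase 8 cleaves to connect death receptors with mitochondria. It had 79.8, 48.9, 79.7 and 64.7 CPM in E-cadHI and 67.8, 42.2, 56.5 and 53.8 CPM in E-cadLO cells. Mouse 58 was lowest in both groups, and the differences within mice were similar, from -0.49 to -0.21 on the log2 scale, with a mean of -0.30 ± 0.13 (SD, n = 4 mice). The fitted log2 fold change was -0.31 (SE 0.21, 95% interval -0.78 to 0.16, adjusted p = 0.494, edgeR without the block). Bcl2l13, on the opposite strand, overlaps an exon of Bid and had 42.6 to 92.6 CPM.

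Bad (chr19:6941861-6951898) encodes a BH3-only protein that survival kinases such as Akt phosphorylate and thereby silence. Its E-cadHI libraries had 59.4, 41.0, 56.3 and 48.6 CPM, and its E-cadLO libraries 29.9, 34.8, 25.6 and 49.8 CPM. In 3 of 4 mice the E-cadLO value lay below all E-cadHI values, and in mouse 70 both libraries were at about the same level (0.03 on the log2 scale, and -0.04 with library totals). The fitted log2 fold change was -0.55 (SE 0.24, 95% interval -1.08 to -0.03, unadjusted p = 0.0415, adjusted p = 0.343, edgeR without the block), the smallest p of the members. It was -0.79 without mouse 70 (adjusted p = 0.3005) and -0.38 without mouse 67 (adjusted p = 0.715). Gpr137, on the opposite strand, overlaps exons of Bad and had 2.58 to 7.56 CPM, below any value of Bad.

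**Figure D3:**
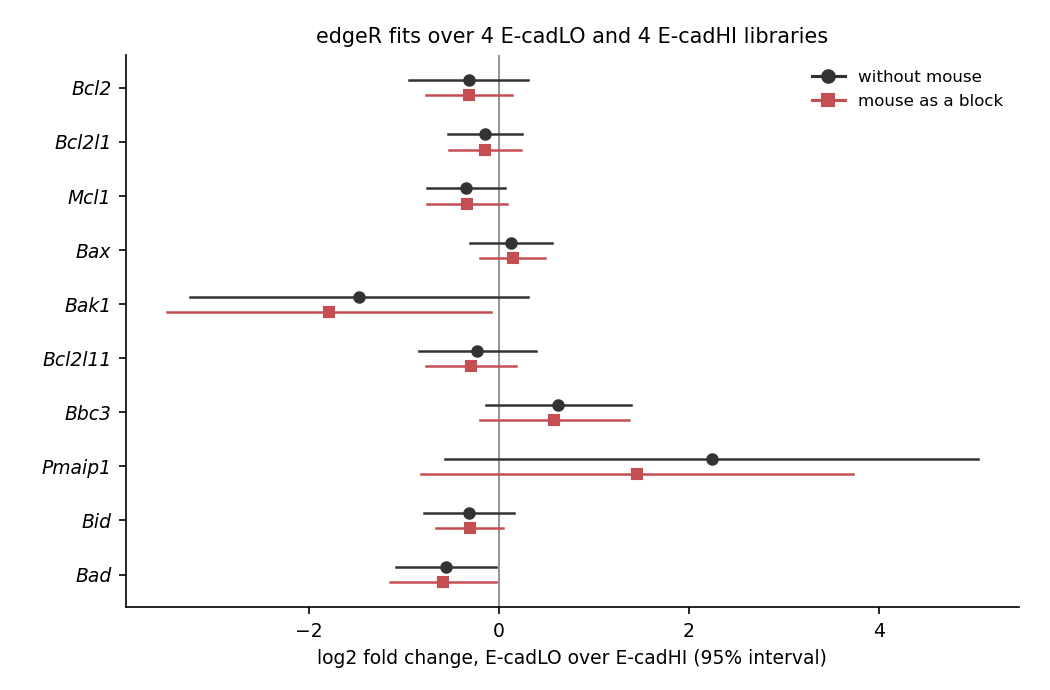
Fitted log2 fold changes of E-cadLO over E-cadHI with 95% intervals for the 10 members, without the mouse (black circles) and with the mouse as a block (red squares). Intervals of Bcl2l1 and Bax are narrow around 0, those of Bak1 and Pmaip1 span several log2 units, and adjusted p-values are above 0.05 for all members in both fits.

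The intervals of the edgeR fit without the block show which sizes of difference that fit could resolve. For Bcl2l1 the fitted fold of E-cadLO over E-cadHI was 0.902 (95% interval 0.688 to 1.18) and for Bax 1.09 (0.811 to 1.48), so that a doubling or halving lies outside both intervals. The fold was 0.802 (0.520 to 1.24) for Bcl2 and 0.789 (0.593 to 1.05) for Mcl1. For Bid it was 0.807 (0.581 to 1.12), and for Bcl2l11 it was 0.856 (0.557 to 1.32). A doubling or halving lies outside these intervals too. The interval of Bad (fold 0.681, 0.473 to 0.982) held a halving, and that of Bbc3 (fold 1.54, 0.910 to 2.62) held a doubling. The intervals of the fold were wide for Bak1 (0.105 to 1.23), with 2 to 52 counts per library, and for Pmaip1 (0.677 to 32.9), with 0 to 121 counts per library and mice that differed from each other beyond counting error. With the mouse as a block, the interval was 0.698 to 1.17 for Bcl2l1, 0.875 to 1.40 for Bax, 0.589 to 1.10 for Bcl2 and 0.568 to 13.2 for Pmaip1. The blocked intervals of Bak1 (0.0887 to 0.948, adjusted p = 0.241, edgeR) and Bad (0.453 to 0.981, adjusted p = 0.240, edgeR) lay below 1.

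Levels of different genes were compared as CPM per kilobase of the union of each gene's exons. Bax was the highest and Bcl2l1 the second highest member in all 8 libraries, at 59.5 ± 12.7 and 30.5 ± 5.27 CPM per kb in E-cadHI and 65.1 ± 8.96 and 27.5 ± 3.61 CPM per kb in E-cadLO cells (SD, n = 4). Mcl1, Bid and Bad took ranks 3 to 5 in every library, at 18.9 ± 3.59, 19.2 ± 4.15 and 20.1 ± 3.23 CPM per kb in E-cadHI and 14.9 ± 1.91, 15.5 ± 2.96 and 13.7 ± 4.12 CPM per kb in E-cadLO cells, with overlapping spreads on this scale. Per kilobase of the longest transcript instead, Mcl1 ranked 5 in every library, at 18.9 ± 3.59 CPM per kb in E-cadHI cells beside 28.3 ± 6.10 for Bid and 33.5 ± 5.38 for Bad, so the order of these 3 depends on the length used. Bcl2l11 followed at 5.44 ± 0.797 and 4.66 ± 1.69 CPM per kb, then Bcl2 at 2.94 ± 0.867 and 2.35 ± 0.621 and Bbc3 at 2.64 ± 0.372 and 4.08 ± 1.32 CPM per kb, whose spreads overlapped. Bak1 (0.954 ± 0.440 and 0.345 ± 0.301) and Pmaip1 were lowest in E-cadHI cells. Over the libraries, Pmaip1 ranked between 6 and 10 and Bcl2l11 between 6 and 9. These ranks also depend on the length used. Per kilobase of the longest transcript, Pmaip1 ranked 9 or 10 and Bcl2l11 ranked 6 in every library. Bax supplied 97.9 to 99.9% of the summed effector level, and Bcl2l1 supplied 47.3 to 69.0% of the anti-apoptotic level (60.6 to 79.3% per kilobase of the longest transcript).

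**Figure D4:**
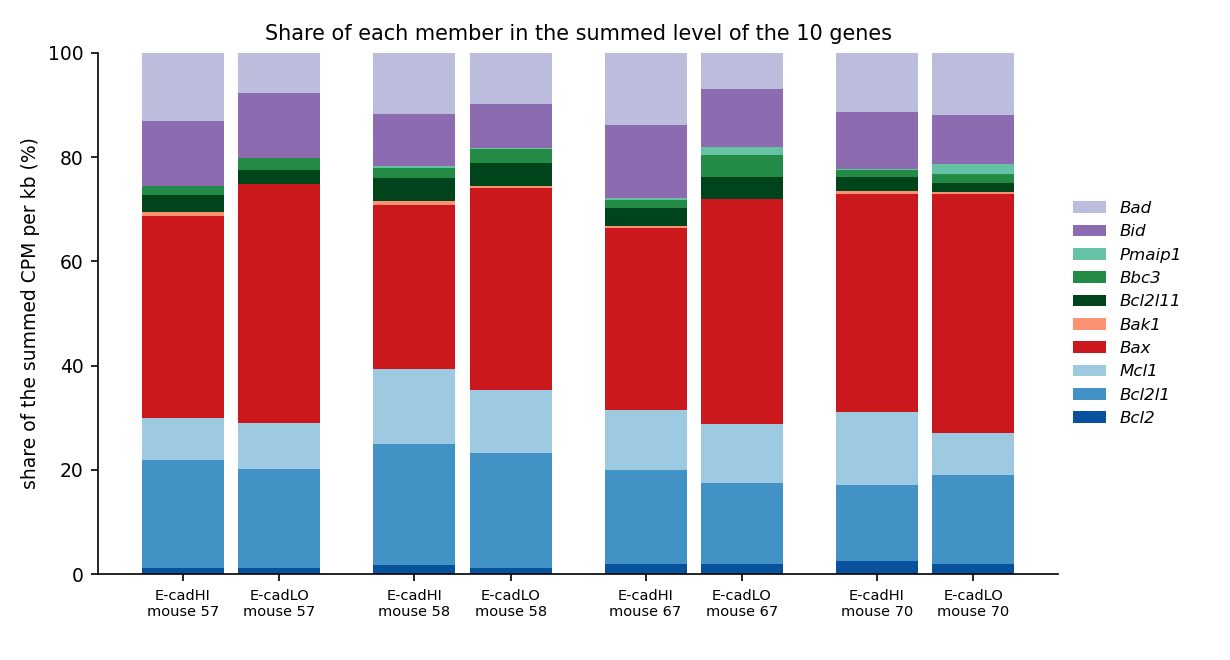
Share of each member in the summed level of the 10 genes (CPM per kb of exon, in percent) for the 8 libraries, paired by mouse. Blue marks anti-apoptotic genes, red the effectors, and green and purple the BH3-only genes, and the red share is larger in the E-cadLO bar of each of the 4 mice.

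The balance between the 3 roles is described here without a test. The ratio of the summed anti-apoptotic to the summed effector level was 0.757, 1.23, 0.890 and 0.730 in E-cadHI cells of mice 57, 58, 67 and 70 and 0.631, 0.902, 0.670 and 0.588 in E-cadLO cells, lower in 4 of 4 mice although the groups overlapped. The effectors took 37.4 ± 4.61% of the summed level of the 10 genes in E-cadHI and 43.6 ± 3.27% in E-cadLO cells (SD, n = 4), higher in 4 of 4 mice. The summed effector level itself was 60.5 ± 12.9 and 65.4 ± 8.99 CPM per kb. With TMM scaling it was higher in 3 of 4 mice and lower in mouse 57 (70.3 against 70.8 CPM per kb). The summed anti-apoptotic level itself was 52.4 ± 1.88 and 44.8 ± 3.28 CPM per kb, lower in 4 of 4 mice with TMM scaling and in 3 of 4 with library totals, where mouse 57 was higher (53.1 against 51.6 CPM per kb). The summed BH3-only level was 47.7 ± 7.34 and 39.4 ± 3.16 CPM per kb, lower in 4 of 4 mice under each scaling. Relative to the BH3-only genes, the anti-apoptotic level did not move in one direction (ratio 1.12 ± 0.202 and 1.15 ± 0.168, lower in 2 of 4 mice). Within the BH3-only genes, Bbc3 took 5.60 ± 0.936% in E-cadHI and 10.4 ± 3.38% in E-cadLO cells and Bid and Bad together 82.1 ± 3.98% and 74.1 ± 7.51%, each in the same direction in 4 of 4 mice. Ratios within a library do not depend on its scaling, but Bax alone sets nearly all of the effector sum, so that these ratios are not independent of the Bax values given above.

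The genes around the family were read from 5 lists with 86 genes, of which 81 were tested. With edgeR, 0 of the 81 were called without the block (17 had an unadjusted p under 0.05, where 14% of all tested genes did), 2 were called with the block (background 0.728%), 5 by DESeq2 (background 2.56%) and 12 by DESeq2 with the block (background 9.2%). The genes called by edgeR with the block were Cdkn1a and Ddit3, and both were higher in E-cadLO cells. As a background for the directions below, 7489 of the 13598 tested genes had a positive and 6109 a negative log2 fold change, and 16.8% were higher and 14.2% lower in 4 of 4 mice. DESeq2 with the block called these and Mdm2, Phlda3, Trib3, Pim3, Tnf, Fas, Birc2, Bok and Hrk as higher and Aifm1 as lower.

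The list of p53 and its targets had 14 tested genes, of which 13 had a positive and 1 a negative log2 fold change without the block. The median was 0.31 beside a median of 0.06 over all tested genes. Several of the positive values were close to 0, and fewer genes were positive with the block (median 0.33). In 4 of 4 mice, 5 of the 14 were higher and 0 were lower. Cdkn1a, the p53 target that encodes the cell cycle inhibitor p21, had 13.9, 10.4, 20.7 and 16.5 CPM in E-cadHI and 48.8, 30.8, 89.3 and 50.8 CPM in E-cadLO cells of mice 57, 58, 67 and 70. The groups did not overlap, and the difference within mice was 1.52 to 2.08 on the log2 scale. Its log2 fold change was 1.84 (SE 0.34, adjusted p = 0.204, edgeR) without the block and 1.78 (SE 0.19, adjusted p = 0.0239) with it. Mdm2, the p53 target that marks p53 for degradation, had a log2 fold change of 0.63 (SE 0.16, adjusted p = 0.262) with no overlap between the groups, and it was called by DESeq2 with and without the block. Phlda3 stood at 1.89 (SE 0.65, adjusted p = 0.301) and Mdm4 at 0.48 (SE 0.26, adjusted p = 0.415). Trp53 itself was at 217 ± 33.6 CPM in E-cadHI and 227 ± 66.2 CPM in E-cadLO cells (SD, n = 4), with a log2 fold change of 0.06 (adjusted p = 0.906, edgeR). Among the members that p53 can induce, Bax, Bbc3 and Pmaip1, none passed the test, as given above.

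**Figure D5:**
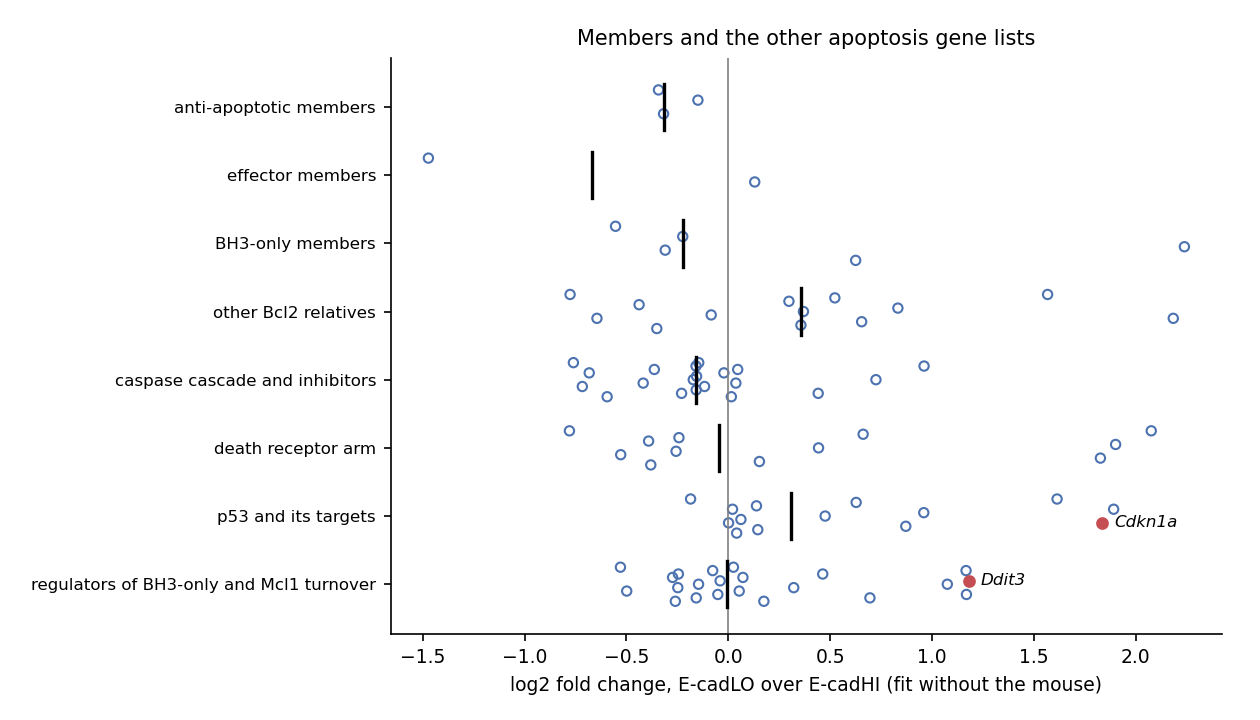
Log2 fold changes of E-cadLO over E-cadHI (fit without the mouse) for the members by role and for the tested genes of the 5 other lists, with each list's median as a black bar. Red points are the genes called when the mouse was a block, Cdkn1a and Ddit3, and no member is among them.

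Among the 22 regulators of BH3-only genes and of Mcl1 turnover, 11 had a positive and 11 a negative log2 fold change, with a median of -0.01. Ddit3, which encodes the stress transcription factor Chop and is known to induce Bim and Trib3, had 49.9, 30.9, 40.7 and 49.3 CPM in E-cadHI and 112, 70.1, 122 and 82.9 CPM in E-cadLO cells. It was higher in 4 of 4 mice without overlap, with a log2 fold change of 1.18 (SE 0.23, adjusted p = 0.210, edgeR) without the block and 1.17 (SE 0.18, adjusted p = 0.0405) with it. Trib3, a pseudokinase that binds Akt, and Pim3, a kinase that phosphorylates Bad, had log2 fold changes of 1.17 (SE 0.38, adjusted p = 0.298) and 1.17 (SE 0.35, adjusted p = 0.282), and both were called only by DESeq2 with the block. Akt1, which also phosphorylates Bad, had 54.0 ± 5.75 CPM in E-cadHI and 37.4 ± 8.98 CPM in E-cadLO cells (log2 fold change -0.53, SE 0.20, adjusted p = 0.318, edgeR), with no overlap between the groups.

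The caspase cascade lies downstream of the effectors. Of its 20 genes and inhibitors, 14 had a negative and 6 a positive log2 fold change, 7 were lower in 4 of 4 mice and 1 was higher in 4 of 4, and the median was -0.16. Aifm1, a flavoprotein of the mitochondrial intermembrane space, stood at 216 ± 30.9 and 135 ± 28.9 CPM in E-cadHI and E-cadLO cells (log2 fold change -0.68, SE 0.19, adjusted p = 0.269, edgeR), without overlap, and was called by DESeq2 with and without the block. Casp6, which encodes a caspase of the execution phase, stood at 71.3 ± 13.6 CPM in E-cadHI and 47.2 ± 7.99 CPM in E-cadLO cells (log2 fold change -0.59, SE 0.20, adjusted p = 0.298, edgeR) and did not pass the test. Birc2, which encodes the ubiquitin ligase cIAP1, had 48.1 ± 2.89 and 93.6 ± 49.7 CPM (log2 fold change 0.96, SE 0.32, adjusted p = 0.298), with 164 CPM in the E-cadLO library of mouse 57.

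In the death receptor arm, 12 of 13 genes were tested and 6 had a positive log2 fold change, with a median of -0.04. Tnf had 1.61 to 3.62 CPM in E-cadHI and 5.03 to 15.2 CPM in E-cadLO cells, a log2 fold change of 1.90 (SE 0.46, adjusted p = 0.253, edgeR), and it was called by DESeq2 with and without the block. Macrophages also express Tnf. In the E-cadLO libraries of mice 57, 58, 67 and 70, Tnf had 15.2, 8.61, 8.21 and 5.03 CPM. The microglia and macrophage sums of these libraries were 263, 226, 775 and 994 CPM. The part of these cells in the Tnf level was not tested. The receptor gene Fas reached 42.2 CPM in the E-cadLO library of mouse 57 and 5.70 to 14.7 CPM in the other E-cadLO libraries, against 2.997 to 6.32 CPM in E-cadHI cells (log2 fold change 1.83, SE 0.60, adjusted p = 0.298). Cflar, which encodes the caspase 8 inhibitor cFLIP, stood at 0.66 (SE 0.23, adjusted p = 0.301), and Tradd, an adaptor of the TNF receptor, at -0.53 (SE 0.21, adjusted p = 0.326).

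Of 15 further Bcl2 relatives, 13 were tested, of which 8 had a positive and 5 a negative log2 fold change, with a median of 0.36. Bok, an effector-like relative, had 1.05, 5.92, 3.64 and 15.5 CPM in E-cadHI and 12.9, 13.0, 13.5 and 37.9 CPM in E-cadLO cells. It was higher in 4 of 4 mice (log2 fold change 1.57, SE 0.73, adjusted p = 0.369 without and 0.109 with the block, edgeR) and was called by DESeq2 with the block. The BH3-only gene Hrk was higher in 4 of 4 mice as well, at 0 to 1.46 CPM in E-cadHI and 0.743 to 3.42 CPM in E-cadLO cells (log2 fold change 2.19, SE 1.10, adjusted p = 0.396, edgeR). Bcl2l15 (-0.64, SE 0.27, adjusted p = 0.337, edgeR) was lower in E-cadLO cells of 4 of 4 mice, with no overlap between the groups. Bcl2l14 (-0.78, SE 0.35, adjusted p = 0.358, edgeR) was lower in 3 of 4 mice, and its groups overlapped. The Bcl2a1 genes are near-identical copies whose counts cannot be told apart with certainty.

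For 5 members, the tested genes whose log2(CPM + 0.5) values were most like theirs over the 8 libraries are given as a description only. They were picked as the closest of all tested genes over few libraries, so a high r partly reflects this choice and is not a test. Every gene also shares the same libraries and their depth. Bcl2l1 was most like Pacsin2 (Pearson's r = 0.97), Ssr3 (0.95) and Tmem39b (0.94), and Mcl1 was most like Dlg3, Nfatc3 (both 0.94) and Sav1 (0.92). Bax was most like Prkrip1 (0.97), Gm4353 (0.96) and Anapc16 (0.95), and Bad was most like Scyl3 (0.98), Fkbp1a and Dolk (both 0.97). For Pmaip1 the closest genes were Hist2h2be and Iffo1 (both 0.98) and Gfra1 (0.97), all with low levels (at most 13.4 CPM).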

How the data were processed

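The authors made TruSeq mRNA libraries, sequenced single reads, mapped them to GRCm38 with Hisat 2.1.0 and deposited raw counts per gene for the 8 libraries. The methods name Icount for counting and the submitters' processing notes name HTSeq, and whether strand was used is not given in the sources used here. Of 32259 entries, 365 without a gene identifier (0.0636 to 0.0954% of counts) were left out. From the deposited counts, edgeR 4.0.16 (R 4.3.3) was run with TMM, filterByExpr by group and the quasi-likelihood test, with Benjamini-Hochberg adjustment over 13598 genes. DESeq2 1.42.0, named in the study's methods, was an alternative. Steps were tested on simulated data. CPM are TMM-normalised, differences within mice use CPM plus 0.5, and levels per kb use exons of GENCODE M21 (31719 of 31894 genes matched).

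Sample titles give the mouse, so both libraries of a number come from 1 animal. Deviations from the group means correlated within each mouse (0.275 to 0.698). Named genes are the members, the up to 4 genes of each list with the smallest p and any list gene called under the block, and Trp53, which was added after its values were seen. A gene that this rule selects is not reported here. Genes most like a member are given for those with the largest and smallest log2 fold change per role, except Bak1. The members and gene lists were chosen with earlier results of these data known. Alternatives were other scalings, filters and pseudocounts, a robust fit, each mouse and each library left out, and totals without Gm42418 and mitochondrial genes. Counting intervals are exact at 95% and cover counting error only. Exact tests used scipy 1.17 in Python 3.11, and figures matplotlib 3.10.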

Additional observations from a re-analysis of the deposited data

Results flagged for a closer look

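In each group of 4 libraries and each set of 4 differences within mice, the member values were searched for one that stood far from the others. Of 30 such groups, 1 was singled out, the log2 difference of Bbc3 in mouse 67, at 1.10 where the next mouse was at 0.43. Chance alone would single out about 1 in 20 groups, which is 1.5 of the 30. The value rests on 188 counts in the E-cadLO and 76 counts in the E-cadHI library, and without mouse 67 the log2 fold change of Bbc3 was 0.40 (adjusted p = 0.769, edgeR without the block).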

How the results depend on the processing

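No member was called in any of the 25 alternatives. The 342 recomputed values were counts of members called, fitted log2 fold changes, mean differences within mice and ratios between roles. None of them changed direction or side of the threshold. Directions in single mice did change. With library totals, Bcl2, Mcl1 and Bid turned to higher in E-cadLO cells of mouse 57, and Bad turned to lower in mouse 70 (-0.04). Of all tested genes, 0% were called in the main fit, 0.728% in edgeR with the block, and 2.56% and 9.2% in DESeq2 without and with the block. This share was not counted in the other alternatives, so the lack of calls there says little about the members. Over the alternatives, the log2 fold change ranged from -0.45 to -0.12 for Bcl2, -0.25 to -0.03 for Bcl2l1, -0.44 to -0.16 for Mcl1, 0.01 to 0.22 for Bax, -2.31 to -0.91 for Bak1, -0.42 to -0.02 for Bcl2l11, 0.38 to 0.78 for Bbc3, 0.54 to 2.76 for Pmaip1, -0.45 to -0.19 for Bid and -0.79 to -0.38 for Bad. The smallest adjusted p of any member was 0.166, for Bak1 in DESeq2 with the replicate block. With the replicate block in edgeR, 0 members were called and the log2 fold changes were -0.31 for Bcl2, -0.14 for Bcl2l1, -0.33 for Mcl1, 0.15 for Bax, -0.29 for Bcl2l11, 0.59 for Bbc3, -0.30 for Bid and -0.58 for Bad. The block moved the count of genes called over the whole table from 0 to 99 in edgeR and from 348 to 1251 in DESeq2. Bak1 and Pmaip1 have 24 alternatives, since they did not pass a minimum of 10 counts in every library. The same 4 animals, all with 1 organoid line, gave the libraries of both groups. Without the block, p-values describe the spread between the libraries of a group. With the block and in the sign-flip test, they describe the spread of the differences within these animals. Counts per library were 2 to 52 for Bak1 and 0 to 121 for Pmaip1, and what sets the width of their intervals was not tested.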
